A study of Homo sapiens with 6 samples.

Results

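The replication-dependent histone genes are the clustered genes that make the linker histone H1 and the core histones H2A, H2B, H3 and H4. They were taken as every row of the count table whose symbol begins with HIST1H, HIST2H, HIST3H or HIST4H, which gave 73 of 23368 genes. These were 6 H1, 18 H2A, 20 H2B, 14 H3 and 15 H4 genes, of which 3 are annotated as pseudogenes. The large HIST1 cluster on chromosome 6 held 56 of them, the HIST2 and HIST3 clusters on chromosome 1 held 13 and 3, and HIST4H4 on chromosome 12 stood alone. The series compared 1205Lu cells, a human line from metastatic melanoma, 24 h after transient transfection with 7.8 µg of plasmid per flask. In 3 flasks, labelled SOX10, the plasmid was pCMV6-SOX10, which carries the neural crest transcription factor SOX10, and in 3 control flasks it was the pCMV6 vector, all with the same transfection reagent. The question set by the design was which transcripts changed when SOX10 was overexpressed. The submitters call the samples biological replicates but do not say how the flasks were separated, so p-values measure the spread between these 6 libraries in 1 cell line.

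Most replication-dependent histone genes have no introns and are transcribed together in S phase, when newly copied DNA has to be packed. Their mRNAs end in a conserved stem-loop, bound by the stem-loop binding protein SLBP, in place of a poly(A) tail, and are degraded when DNA synthesis stops. Some members, among them HIST2H2BE, HIST1H2BK, HIST1H2BD, HIST1H2BC, HIST1H2AC and HIST1H1C, are also known to make polyadenylated mRNAs in cells that are not replicating. The libraries were made from total RNA and the labels name no poly(A) selection, so both forms could be counted, and a table of reads per gene does not separate them.

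The stem-loop is the feature that the histone mRNAs share, and its letters are shown for members with high counts and for members with the other loop types. A 16-base loop was found in the GENCODE release 29 transcripts of 33 of the 73 genes, and the match is a description of these transcript models. Many models without a match are shorter than the RefSeq gene, for example 381 against 487 bases in HIST1H2BB and 312 against 402 in HIST1H4A. No match there does not mean that the gene lacks a stem-loop. The capitals mark the loop and the lower case letters its 5 flanking bases on each side, written as DNA.
HIST2H2BE: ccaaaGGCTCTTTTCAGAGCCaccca
HIST2H2BF: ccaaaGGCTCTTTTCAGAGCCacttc
HIST1H2BF: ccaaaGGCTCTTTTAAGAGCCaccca
HIST1H2AG: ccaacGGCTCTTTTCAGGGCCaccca
HIST1H3E: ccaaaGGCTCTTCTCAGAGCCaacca
HIST4H4: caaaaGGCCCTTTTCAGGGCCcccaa
HIST1H4I: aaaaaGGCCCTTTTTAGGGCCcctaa
The loop of HIST2H2BE was the most frequent and was found in 17 members, of types H2A, H2B and H3. The loops of HIST4H4 and HIST1H4I were found in 5 and 3 members and in H4 genes only. The loop of HIST1H2BF was found in 5 members, that of HIST1H2AG in 2 and that of HIST1H3E in 1. Over all 26 bases, HIST1H2AE, HIST1H3H and HIST3H2BB had the same letters as HIST2H2BE. For each gene the transcript model that ran farthest past the loop was taken. In 24 of the 33 genes it ran more than 100 bases past, for example 1729 bases in HIST2H2BE and 1479 in HIST2H2BF. In 9 it ended within 100 bases, for example 51 in HIST1H2AE.

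The libraries labelled SOX10 had 2544420 to 4167393 reads assigned to genes and the controls 867917 to 2066520, so depth differed with the group. Reads outside annotated genes numbered 93.5 and 97.0 per 100 assigned reads in SOX10 replicate 1 and control replicate 3, and 121 to 135 in the other 4 libraries. The SOX10 gene itself had 21.7, 18.7 and 34.6 CPM (counts scaled to library size) in the libraries labelled SOX10 and 16.6, 20.8 and 21.5 CPM in the controls. The groups overlapped and the gene did not pass the test (log2 fold change 0.35, SE 0.27, adjusted p = 0.927), so its reads did not separate the labels, and every direction given here is between libraries as labelled. Of 15 melanocyte lineage markers that the table lists, 14 had a read and 6 were tested, none of them called. Their summed level was 1122 to 1278 CPM in the libraries labelled SOX10 and 1093 to 1224 CPM in the controls. ERBB3, S100A1, S100B and PAX3 were well covered, whereas the pigment genes PMEL, MLANA, TYR, TYRP1 and DCT had 0 to 7 reads per library. The 16 keratinocyte, leukocyte and endothelial markers summed to 11.8 to 25.7 CPM in the libraries labelled SOX10 and 18.8 to 23.4 CPM in the controls.

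Histone genes took a small and similar share of both groups. They received 18639, 11694 and 16653 reads in SOX10 replicates 1 to 3 and 4257, 3461 and 9179 in the controls. This was 0.499, 0.460 and 0.400% of assigned reads in the libraries labelled SOX10 and 0.460, 0.399 and 0.444% in the controls. Scaled by TMM, an edgeR factor that aligns the bulk of genes between libraries, the summed level was 4991, 4664 and 4034 CPM in the libraries labelled SOX10 and 4707, 3992 and 4476 CPM in the controls. The groups overlapped, with means of 4563 ± 487 and 4391 ± 365 CPM (SD, n = 3 each) for SOX10 and control libraries and a difference of 0.05 on the log2 scale. Without SOX10 replicate 3 that difference was 0.14, and without SOX10 replicate 1 it was -0.02. In bulk RNA, fewer cells in S phase and less histone mRNA per cell cannot be told apart. The 40 genes listed for S phase, such as the MCM helicase subunits, summed to 5522, 5863 and 5333 CPM in the libraries labelled SOX10 and 5524, 5029 and 5541 CPM in the controls, again with overlap.

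**Figure D1:**
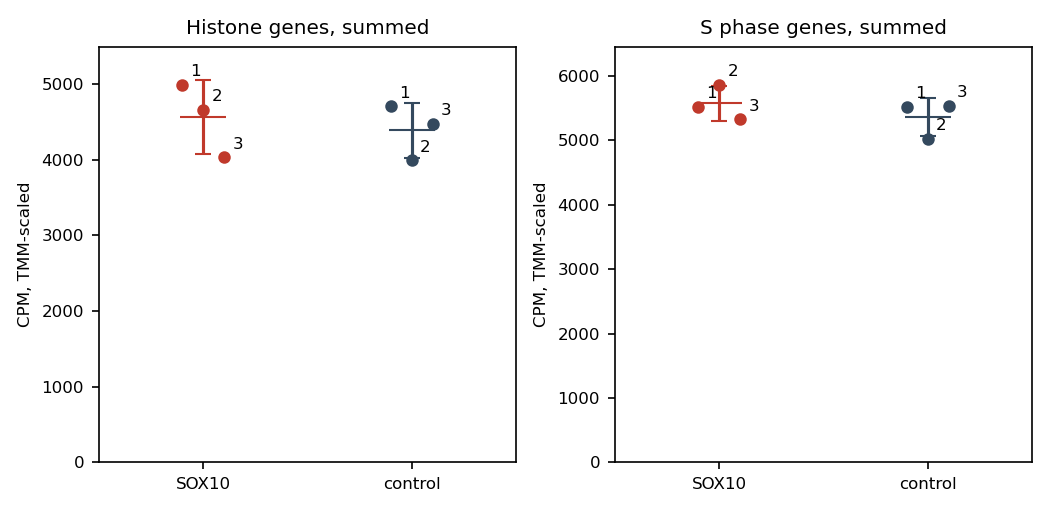
Summed TMM-scaled CPM of the 73 histone genes (left) and of the 40 S phase genes (right) in the 3 SOX10 and 3 control libraries, numbered by replicate, with the mean and SD. In both panels the points of the groups overlap; the histone means are 4563 CPM in SOX10 and 4391 CPM in control libraries.

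Within the histone reads, H2B genes made up most of the total. H2B took 75.1 ± 0.90% of histone reads in the libraries labelled SOX10 and 76.0 ± 0.60% in the controls (SD, n = 3 each). H2A took 17.9 ± 0.57% in the libraries labelled SOX10 and 17.4 ± 0.70% in the controls. H1, H3 and H4 each took between 1.20 and 2.82% in every library. A nucleosome holds H2A, H2B, H3 and H4 proteins in equal number. HIST2H2BE alone took 38.2 to 41.3% in the libraries labelled SOX10 and 40.0 to 41.5% in the controls. The 6 members also known as polyadenylated mRNAs together took 52.8 ± 0.96% in the libraries labelled SOX10 and 52.6 ± 0.49% in the controls. Genes whose transcript model runs more than 100 bases past the stem-loop took 67.4 ± 1.11% in the libraries labelled SOX10 and 68.8 ± 0.89% in the controls. These are shares of reads, so longer genes weigh more in them, and the groups overlapped in each share given here. Reads without a unique alignment were counted for no gene. The near-identical HIST2 copies with 0 reads are H2A, H3 and H4 genes, with no H2B gene among them. Counts also varied among H3 and H4 genes with every 50-base window of their GENCODE transcripts unique. Over all 6 libraries HIST1H4F had 0 reads, HIST1H4C 18, HIST1H3B 20 and HIST1H3H 690. How far the left-out reads lower the H2A, H3 and H4 shares was not tested.

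**Figure D2:**
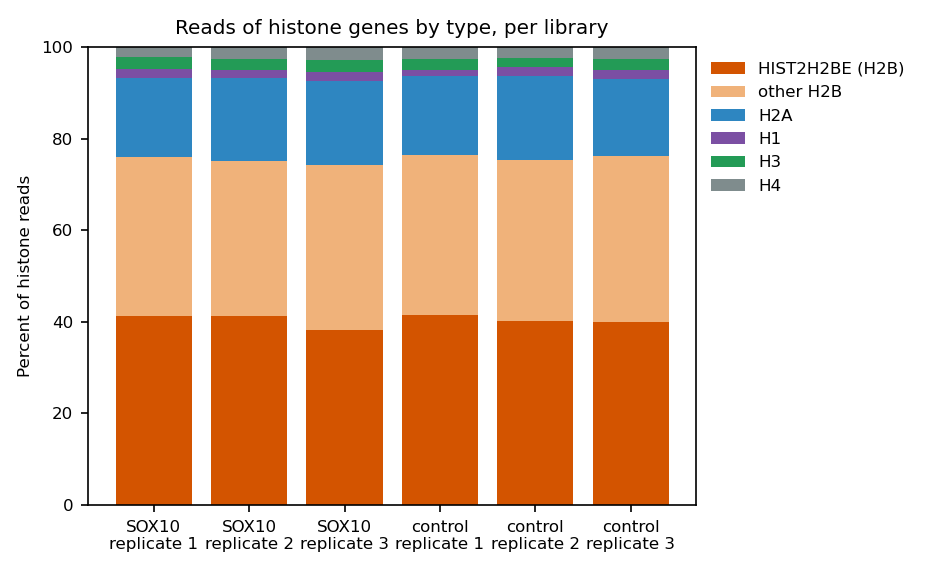
Share of histone reads, in percent, by histone type in each of the 6 libraries, with HIST2H2BE drawn apart from the other H2B genes. HIST2H2BE fills 38.2 to 41.5% of every bar, and the 6 bars have nearly the same make-up.

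Of the 73 genes, 60 had at least 1 read and 39 passed the filter on low counts; these 39 held 99.4% of the histone reads. The other 34 were 13 genes with 0 reads in all 6 libraries and 21 genes with 1 to 67 reads in total, with a median of 16. Of these 21, HIST1H3D had the most with 55 reads in the libraries labelled SOX10 and 12 in the controls. HIST1H4A had 33 and 20 reads, and HIST1H4D 37 and 11, in SOX10 and control libraries. A count of 0 allows up to 3 reads, which was 0.720 to 1.18 CPM in the libraries labelled SOX10 and 1.45 to 3.46 CPM in the controls. Of 4 members known from testis, HIST1H1T and HIST3H3 were at 0, and HIST1H2AA and HIST1H2BA had 3 reads and 1 read. The genes at 0 also included 6 of 7 HIST2 genes that exist in near-identical copies. In 7 of the 13 fewer than 10% of the 50-base windows of the GENCODE transcripts were unique. Reads without a unique alignment and ambiguous reads were counted for no gene, so a 0 there does not mean that the gene was silent. Among these 7, HIST1H2AD overlaps HIST1H3D in the annotation and is not one of the near-identical copies. The rest of the 13, HIST1H3I, HIST1H4F, HIST1H4G, HIST1H4L, HIST1H1T and HIST3H3, had 100% unique windows. The number of members with a read was 58, 51 and 53 in the libraries labelled SOX10 and 48, 49 and 52 in the controls. After thinning every library to 867917 reads it was 48, 49 and 43 in the libraries labelled SOX10 and 48, 49 and 50 in the controls.

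No histone gene was called between the groups. With edgeR's quasi-likelihood test and Benjamini-Hochberg adjustment over 10678 tested genes, 12 genes or 0.112% of all passed an adjusted p of 0.05, and 0 of the 39 tested histone genes did. DESeq2 and limma-voom also called 0. At an unadjusted p under 0.05, 6.23% of all tested genes and 3 of the 39 histone genes (7.69%) passed, HIST1H3F and HIST1H1E higher and HIST3H2BB lower in the libraries labelled SOX10. By direction, 2.71% of all tested genes passed as higher and 3.52% as lower. The values of all 3 SOX10 libraries lay outside the control range for 11.8% of all tested genes and for 3 histone genes (7.69%), HIST1H2BK, HIST1H2AH and HIST1H3F, all higher, against 5.72% of all tested genes higher in this way. The filter asked for 4.34 CPM in at least 3 libraries of either group. HIST1H3F, HIST1H2BN and HIST1H1A reached it in all 3 SOX10 libraries but in only 1, 2 and 2 controls. The control libraries alone would not have met the filter for them, so these counts do not support a direction. The log2 fold change was above 0 for 24 and below 0 for 15 histone genes, with a median of 0.05 beside 0.01 over all tested genes. The 95% confidence interval of the fold stayed under 2-fold in both directions for 30 of the 39 genes and under 1.5-fold for 23, so larger changes of those genes lay outside what these libraries show.

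**Figure D3:**
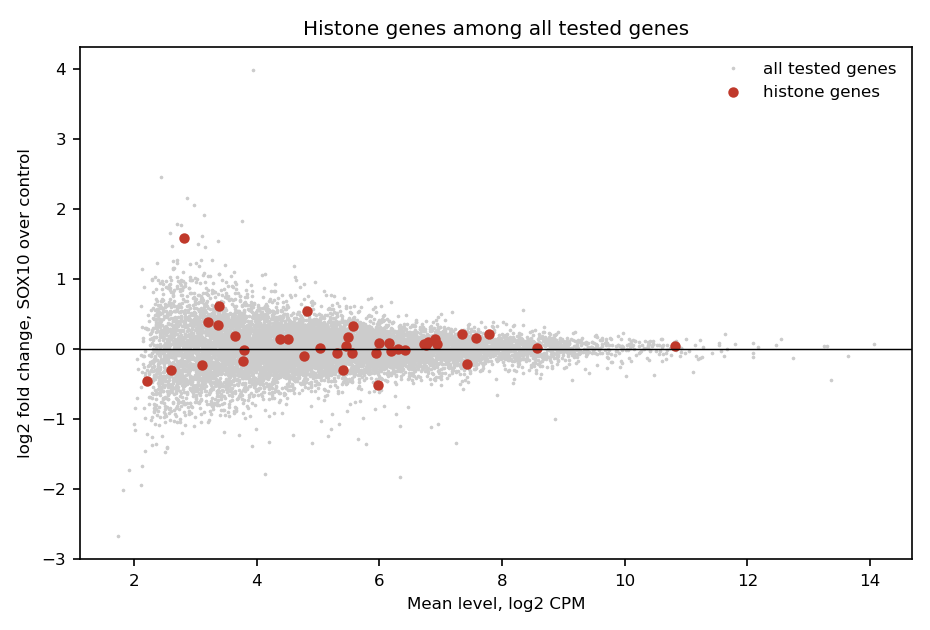
Log2 fold change (SOX10 over control) against mean level (log2 CPM) for the 10678 tested genes in grey and the 39 tested histone genes in red. The histone genes run from -0.52 to 1.59 and lie within the spread of other genes of similar level.

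**Figure D4:**
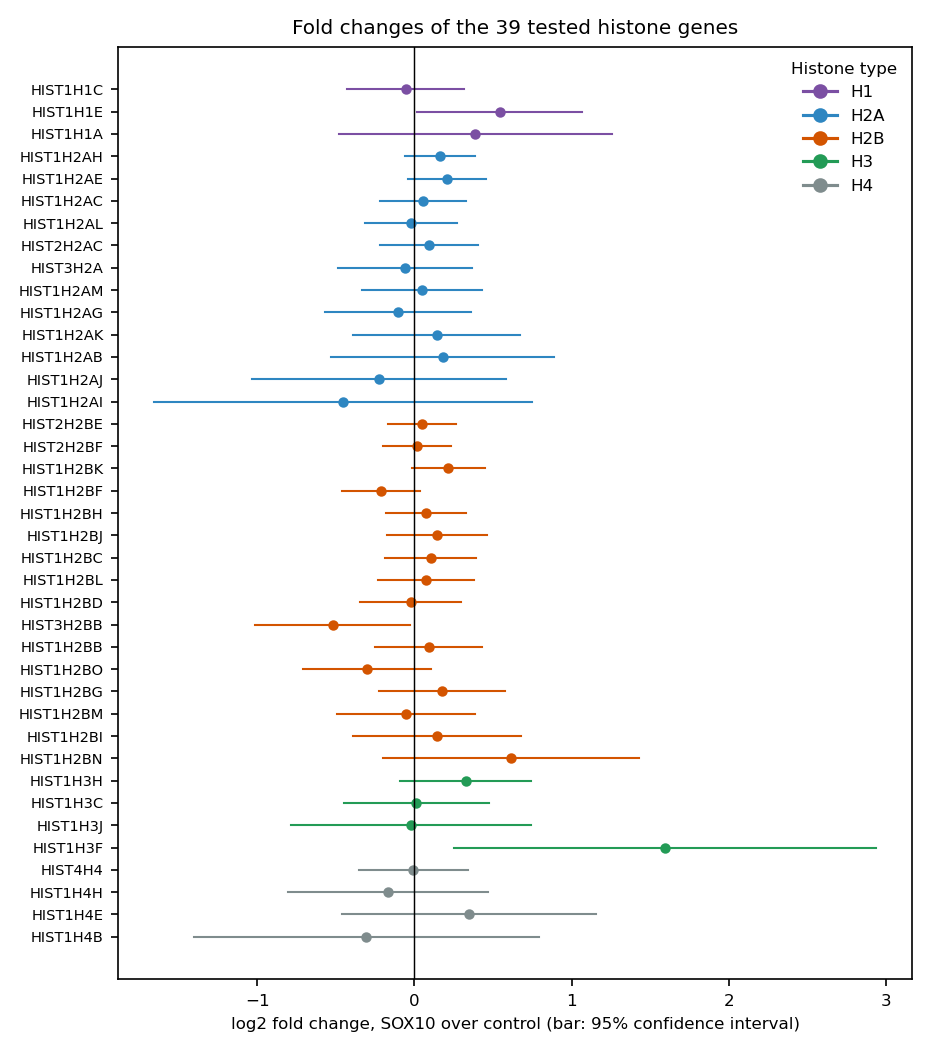
Log2 fold change of the 39 tested histone genes by type, highest level at the top of each type, with 95% confidence intervals. The interval narrows with the level, and HIST1H3F, HIST1H1E and HIST3H2BB are the 3 whose interval does not include 0, none of them called after adjustment.

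Among H2B genes, which pair with H2A in the nucleosome, HIST2H2BE had 2064, 1921 and 1540 CPM in the libraries labelled SOX10 and 1951, 1601 and 1789 CPM in the controls. SOX10 replicate 3 was the lowest and SOX10 replicate 1 the highest of all 6 libraries, so the groups overlapped. Its log2 fold change was 0.05 (SE 0.10, adjusted p = 0.968), with a confidence interval of the fold of 0.892 to 1.20. HIST2H2BF had 413, 379 and 349 CPM in the libraries labelled SOX10 and 406, 347 and 375 CPM in the controls, with a log2 fold change of 0.02. HIST1H2BK had 243, 236 and 225 CPM in the libraries labelled SOX10 and 199, 180 and 223 CPM in the controls. Every SOX10 library was above every control for HIST1H2BK, the closest pair being 225 and 223 CPM, and the gene did not pass the test (log2 fold change 0.21, SE 0.11, adjusted p = 0.839). The annotated span of HIST2H2BF overlaps FCGR1A and that of HIST1H2BK overlaps HIST1H4I, and no source used here says whether the counting kept strands apart, so the reads of overlapping genes are uncertain.

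HIST3H2BB, an H2B gene of the small HIST3 cluster, was the tested member with the lowest log2 fold change and with an unadjusted p under 0.05. It had 73.1, 56.6 and 28.3 CPM in the libraries labelled SOX10 and 76.3, 60.0 and 84.8 CPM in the controls. SOX10 replicate 3 was below every other library, whereas SOX10 replicate 1 lay within the control range. The log2 fold change was -0.52 (SE 0.24, unadjusted p = 0.0386, adjusted p = 0.766), with -0.20 without SOX10 replicate 3 and -0.87 (adjusted p = 0.164) without SOX10 replicate 1. Its neighbour HIST3H2A had 76.1, 63.0 and 40.9 CPM in the libraries labelled SOX10 and 78.5, 50.8 and 59.0 CPM in the controls, with a log2 fold change of -0.06, which was 0.17 without SOX10 replicate 3 and -0.29 without SOX10 replicate 1. SOX10 replicate 3 was again the lowest library and the groups overlapped.

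Among the 12 tested H2A genes, HIST1H2AH had 198, 203 and 198 CPM in the libraries labelled SOX10 and 176, 180 and 179 CPM in the controls. It was the H2A gene whose groups did not overlap, with a log2 fold change of 0.16 (SE 0.11, adjusted p = 0.915). HIST1H2AE had 173, 187 and 158 CPM in the libraries labelled SOX10 and 160, 134 and 152 CPM in the controls, with overlap and a log2 fold change of 0.21 (adjusted p = 0.881). HIST1H2AC had 119, 103 and 105 CPM in the libraries labelled SOX10 and 119, 96.9 and 100.4 CPM in the controls, a log2 fold change of 0.05. Reads of HIST1H2AK, HIST1H2AM, HIST1H2AJ, HIST1H2BK and HIST1H2AI are less certain, since only 0, 13.7, 16.3, 25.9 and 37.7% of their 50-base windows were unique among GENCODE transcripts; 28 of the 39 tested genes had more than 90% unique windows.

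H1 histones bind the linker DNA between nucleosomes, and 3 of the 6 H1 genes were tested. HIST1H1C had 50.1, 42.3 and 43.4 CPM in the libraries labelled SOX10 and 39.8, 54.2 and 47.3 CPM in the controls, a log2 fold change of -0.05 with overlap. HIST1H1E had 36.2, 30.7 and 25.9 CPM in the libraries labelled SOX10 and 14.4, 16.1 and 28.3 CPM in the controls. Control replicate 3 lay within the SOX10 range and the other controls below it, with a log2 fold change of 0.54 (SE 0.25, unadjusted p = 0.0432, adjusted p = 0.775). Leaving out control replicate 3 gave 1.02 and leaving out control replicate 1 gave 0.38. HIST1H1A had 8.57, 9.97 and 8.72 CPM in the libraries labelled SOX10 and 2.21, 9.23 and 8.29 CPM in the controls, a log2 fold change of 0.39 that did not pass the test. Leaving out control replicate 1 gave 0.07, and leaving out control replicate 3 gave 0.67. The H1 genes summed to 85.7 ± 9.13 CPM in the libraries labelled SOX10 and 73.3 ± 14.8 CPM in the controls (SD, n = 3 each).

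Few H3 and H4 genes had enough reads to test, 4 of 14 and 4 of 15. HIST1H3H had 63.7, 39.5 and 47.5 CPM in the libraries labelled SOX10 and 40.9, 33.4 and 44.4 CPM in the controls, a log2 fold change of 0.33 (adjusted p = 0.885) with overlap, which was 0.12 without SOX10 replicate 1. HIST1H3C had a log2 fold change of 0.01 and HIST1H3J of -0.02. HIST1H3F, with the smallest p of all histone genes, had 24, 20 and 37 reads in the libraries labelled SOX10 and 4, 5 and 0 reads in the controls. That was 6.43, 7.98 and 8.96 CPM in the libraries labelled SOX10 and 4.42, 5.77 and 0 CPM in the controls. All SOX10 libraries were above all controls, and control replicate 3, the deepest control, had no read although 3 reads are only 1.45 CPM there. The log2 fold change was 1.59 (SE 0.65, unadjusted p = 0.0220, adjusted p = 0.689), with 0.61 without control replicate 3 and 2.39 without control replicate 2. It passed the low-count filter through the SOX10 libraries, with 1 control over 4.34 CPM before TMM scaling, so this p is no support for a difference. HIST4H4 had 67.2, 94.9 and 71.9 CPM in the libraries labelled SOX10 and 96.2, 62.3 and 75.6 CPM in the controls, a log2 fold change of -0.01. HIST1H4H, HIST1H4E and HIST1H4B had log2 fold changes of -0.17, 0.35 and -0.31, with SE of 0.31 to 0.53. Without SOX10 replicate 1 the value of HIST1H4E was 0.00, and without control replicate 3 that of HIST1H4B was 0.48.

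**Figure D5:**
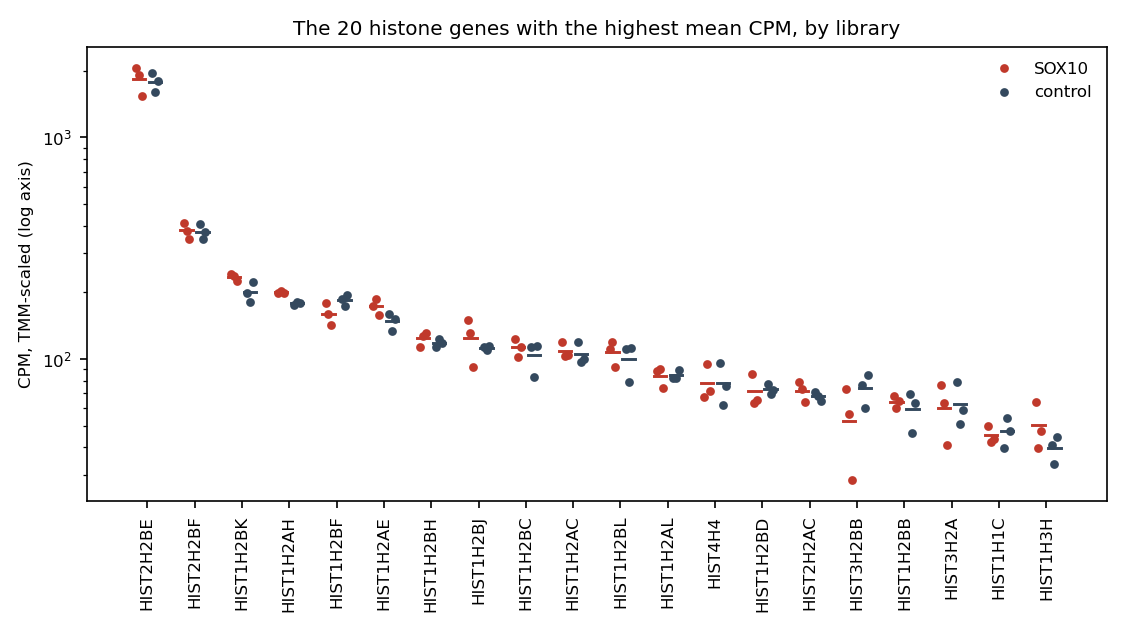
TMM-scaled CPM (log axis) of the 20 histone genes with the highest mean CPM, as points for the 3 SOX10 (left) and 3 control (right) libraries with a bar at each mean. HIST2H2BE stands at 1540 to 2064 CPM and HIST2H2BF at 347 to 413 CPM, and the points of HIST3H2BB run down to 28.3 CPM in SOX10 replicate 3.

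Per length, HIST2H2BE still had the highest level. In CPM per kb of RefSeq gene length it stood at 828 ± 122 in the libraries labelled SOX10 and 800.5 ± 78.9 in the controls (SD, n = 3 each). Among members with a RefSeq value, HIST1H2AH followed at 437 ± 6.52 and 390.0 ± 4.73 CPM per kb in SOX10 and control libraries. HIST1H2BF and HIST1H2AE came next at 365 and 311 CPM per kb over all 6 libraries, and their ranges overlapped. Lengths differ between annotations, and with GENCODE lengths HIST2H2BE remained at rank 1 whereas HIST1H2BF stood at rank 11 and HIST1H2BH, which was at rank 5, at rank 21. HIST2H2BF, HIST1H2BK, HIST1H2BC and HIST1H2BD have no RefSeq value, since their RefSeq span was over 2500 bases, and are missing from that order. With GENCODE lengths HIST1H2BK was at rank 2 with 571 CPM per kb and HIST1H2AH at rank 3 with 488. HIST2H2BF, HIST1H2BC and HIST1H2BD were then at ranks 7, 9 and 16. The GENCODE lengths used were 381 bases for HIST1H2BK, 387 for HIST1H2AH and 2194 for HIST2H2BE.

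Many H2A and H2B genes lie head to head, and the 300-base promoter windows of 11 such pairs overlapped on opposite strands. Of 9 pairs with both genes tested, 8 had both lengths, and in CPM per kb the H2B gene was the higher in 6 and the H2A gene in 2. With GENCODE lengths the same 8 pairs gave 5 and 3, since HIST3H2A was then 2.57 times HIST3H2BB, so the ratios depend on the annotated length. With RefSeq lengths HIST2H2BE was 5.75 times its partner HIST2H2AC, and HIST1H2BL 28.5 times HIST1H2AI, whose windows are largely not unique. Unique windows were also few in HIST1H2AJ (16.3%), HIST1H2AM (13.7%) and HIST1H2AK (0%), against 86.4 to 100% in their H2B partners. The H2B gene was the higher beside HIST1H2AJ and HIST1H2AM and the lower beside HIST1H2AK. Reads without a unique alignment and ambiguous reads were left out, so the ratios of these pairs are uncertain. A window also counted as not unique where a transcript of an overlapping gene, on either strand, holds the same letters. HIST1H2AK had 307 reads over all 6 libraries at 0% unique windows, so this percentage does not measure the reads lost. HIST1H2AE was 3.54 times HIST1H2BG, and 11.3 times with GENCODE lengths. HIST1H2BO was 1.05 times HIST1H2AM and HIST3H2BB 1.15 times HIST3H2A, within the spread of the libraries. Between groups, the log2 fold changes had the same sign in 6 of the 9 pairs.

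Promoters are shown for the most abundant member, for the member with the lowest fold change and for the one with the smallest p. RefSeq windows of 300 bases around the start were at hand for 65 of the 73 genes (GRCh38.p14). The counts were made on hg19, whose coordinates were not used here. Searched on both strands were the octamer ATTTGCAT, known in H2B promoters as a site of the factor OCT1, the CCAAT box, the TATA motif TATAAA and ACAAAG, a SOX-type motif. Capitals mark the octamer, CCAAT and TATAAA on either strand.
HIST2H2BE, chr1:149886633-149886932, minus strand: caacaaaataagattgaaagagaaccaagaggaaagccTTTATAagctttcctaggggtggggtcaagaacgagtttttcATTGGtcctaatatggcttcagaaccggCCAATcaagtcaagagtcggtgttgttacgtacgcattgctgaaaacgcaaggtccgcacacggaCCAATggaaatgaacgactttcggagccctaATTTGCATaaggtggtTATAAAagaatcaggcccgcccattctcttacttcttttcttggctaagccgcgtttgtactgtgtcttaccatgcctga
HIST3H2BB, chr1:228457853-228458152, plus strand: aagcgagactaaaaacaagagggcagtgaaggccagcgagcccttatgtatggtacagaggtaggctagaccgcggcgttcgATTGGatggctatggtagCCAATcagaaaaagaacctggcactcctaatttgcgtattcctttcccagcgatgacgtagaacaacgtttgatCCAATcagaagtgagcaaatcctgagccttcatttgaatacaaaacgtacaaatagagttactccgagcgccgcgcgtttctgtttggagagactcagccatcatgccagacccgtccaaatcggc
HIST1H3F, chr6:26250586-26250885, minus strand: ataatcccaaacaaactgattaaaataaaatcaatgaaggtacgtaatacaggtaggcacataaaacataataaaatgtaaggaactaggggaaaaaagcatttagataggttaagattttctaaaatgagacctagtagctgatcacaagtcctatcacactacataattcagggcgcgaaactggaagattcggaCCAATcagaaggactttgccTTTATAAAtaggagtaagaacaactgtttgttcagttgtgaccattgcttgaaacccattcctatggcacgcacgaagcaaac
The octamer was found in 14 of 18 H2B and 11 of 16 H2A promoters, in 1 of 12 H3 promoters and in none of the 13 H4 and 6 H1 promoters, against 1.80% of 27305 RefSeq promoter windows of all genes. The windows of 11 H2A and H2B pairs overlap, so 1 octamer can be counted for both genes of a pair. The H3 promoter with the octamer, that of HIST1H3D, overlaps the window of HIST1H2BF, which has it too. These counts are therefore not of separate stretches of DNA. The octamer stands beside the TATA motif in HIST2H2BE, and the exact letters were not found in the HIST3H2BB window. CCAAT was found in 84.6% of member promoters against 35.7% of all, and in 3 of 13 H4 promoters. TATAAA was found in 66.2% of member promoters against 12.0% of all. The SOX-type motif was found in 10 of 65 member promoters (15.4%), close to its share among all promoters (16.0%). Of these 10 genes 5 were tested, with a median log2 fold change of 0.14, and of the 55 without it 32 were tested, with a median of 0.05. Both sets had 0 called genes. Among the 5 tested genes with the motif, HIST1H2AG and HIST1H2BJ share overlapping windows, as do HIST1H2AK and HIST1H2BN. A match in a window is a description of its letters only.

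Genes that make, process and deposit histone mRNA and protein were not called either. In the expression machinery, which includes the S phase coactivator NPAT, SLBP and the 3' processing factors, 31 of 34 genes were tested, 0 were called and 1 (3.23%) passed an unadjusted p of 0.05, against 6.23% of all tested genes. The groups did not overlap for 5 of the 31 (16.1%), 2 higher and 3 lower, against 11.8% of all. The gene with the unadjusted p was ZCCHC6, a terminal uridylyltransferase that acts in histone mRNA decay, with 56.5, 61.8 and 75.6 CPM in the libraries labelled SOX10 and 92.9, 107 and 79.0 CPM in the controls (log2 fold change -0.50, SE 0.16, adjusted p = 0.449). All its SOX10 values were below all controls. UPF1, a helicase of histone mRNA decay, had a log2 fold change of -0.25 (adjusted p = 0.815) with overlap. ZCCHC11, the related uridylyltransferase, had 39.7 CPM on average in the libraries labelled SOX10 and 30.9 CPM in the controls (log2 fold change 0.36, adjusted p = 0.874), and CPSF3, the nuclease that cuts histone pre-mRNA, had 0.23 (adjusted p = 0.846), both higher without overlap. WDR33 (-0.17) and SRRT (-0.20) were lower without overlap. NPAT had 0.16 and SLBP 0.15. All 25 histone chaperone and deposition genes were tested, 0 were called and 3 (12.0%) passed an unadjusted p of 0.05, all lower, against 6.23% of all tested genes and 3.52% lower. The log2 fold change was above 0 for 16 of the 25, with a median of 0.03, and the groups did not overlap for 6, 3 higher and 3 lower, a larger share than the 11.8% of all genes. UBN1, a subunit of the HIRA complex that deposits the replacement histone H3.3, had 42.8, 42.3 and 42.6 CPM in the libraries labelled SOX10 and 55.3, 78.4 and 58.5 CPM in the controls (log2 fold change -0.57, SE 0.17, adjusted p = 0.365). DAXX, another H3.3 chaperone, had 63.7, 49.5 and 53.8 CPM in the libraries labelled SOX10 and 74.1, 79.6 and 67.8 CPM in the controls (log2 fold change -0.39, adjusted p = 0.689), also with all SOX10 values below all controls. CHAF1B, a subunit of the CAF-1 complex that deposits histones behind the replication fork, had a log2 fold change of -0.55 (adjusted p = 0.708), again lower without overlap. RBBP4, also a CAF-1 subunit, had 0.28, the histone acetyltransferase HAT1 0.25 and MMS22L, a partner of the chaperone TONSL, 0.25, all 3 higher without overlap and with adjusted p of 0.862 to 0.929.

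Of the S phase genes 39 were tested, 0 were called and 0 passed an unadjusted p of 0.05. MCM4, a replicative helicase subunit, had 902, 957 and 885 CPM in the libraries labelled SOX10 and 818, 788 and 849 CPM in the controls, without overlap and with a log2 fold change of 0.16 (adjusted p = 0.872). Of the replication-independent histones, whose supply does not depend on S phase, 9 were tested and 0 called. They summed to 1833 ± 22.9 CPM in the libraries labelled SOX10 and 1866 ± 24.5 CPM in the controls (SD, n = 3 each), with overlap. H1F0, the linker histone of resting cells, had a log2 fold change of -0.22 and H3F3B, which encodes H3.3, of -0.08; neither passed the test.

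Other RNAs without a poly(A) tail were listed for comparison. The 24 structured or non-polyadenylated RNAs that the table holds, of which 8 were tested, summed to 11031, 11779 and 10120 CPM in the libraries labelled SOX10 and 16498, 12754 and 13005 CPM in the controls, without overlap. Most of that sum was MALAT1, a nuclear long noncoding RNA, at 8879, 9812 and 8260 CPM in the libraries labelled SOX10 and 14332, 11279 and 10899.5 CPM in the controls. Its log2 fold change was -0.44 (SE 0.09, adjusted p = 0.0770), and 0 genes of the list were called. MALAT1 and NEAT1 (log2 fold change -0.52) passed an unadjusted p of 0.05, both lower, which was 2 of 8 (25.0%) against 6.23% of all tested genes and 3.52% lower. SCARNA17 was higher without overlap (0.28). RMRP, the RNA of RNase MRP, had 0.05. The part of this difference, of depth and of reads outside genes in the histone values was not tested. Further fits used outside reads as a covariate, thinning to equal depth, or left out SOX10 replicate 1 and control replicate 3. Each called 0 histone genes, as the full fit did, so these counts do not measure that part.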

How the data were processed

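Total RNA of 6 libraries was sequenced. The deposited table holds raw read counts per gene, made by the authors; TopHat 1.4.0, HTSeq, DESeq and hg19 are named per the submitters' processing notes, whereas annotation, strand setting and read length are named in no source used here. Rows that name no gene entered neither library sizes nor tests; they held reads outside genes (39.4 to 46.9% of all records), reads without a unique alignment (17.7 to 19.1%) and ambiguous reads (0.435 to 0.551%). Counts of all genes were fitted with edgeR 4.0.16 in R 4.3.3 (TMM scaling, filterByExpr with a minimum count of 10, two-sided quasi-likelihood test, Benjamini-Hochberg adjustment over all 10678 tested genes, threshold 0.05, prior count 0.125). Standard errors were taken from the F statistic. CPM are TMM-scaled, except the limit for a count of 0, which uses library totals. The median SE over all tested genes was 0.23 on the log2 scale and the common biological coefficient of variation 12.7%; counting limits cover counting error only. The fit was tested on simulated data.

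The members and the lists were chosen with earlier results of these data known. Members named with values per library were, in each histone type, the 3 with the highest mean CPM and the 2 with the smallest p, and of other lists the 2 with the smallest p and the 2 with the highest mean, of which only those needed are given. HIST3H2A, as the neighbour of HIST3H2BB, and the list genes beyond this rule (CHAF1B, RBBP4, HAT1, MMS22L, ZCCHC11, CPSF3, SRRT, NEAT1, SCARNA17, NPAT, SLBP) were named after their values were seen. Gene symbols were matched to RefSeq (73 of 73) for lengths, overlaps and promoters. The match was through Ensembl identifiers, except for HIST1H3B, HIST1H3C, HIST2H2AA3 and HIST2H2AA4, which were matched through RefSeq synonyms. Alternatives were other scalings and filters, DESeq2 1.42.0, limma-voom (limma 3.58.1), leaving out libraries, thinning, a covariate and a replicate block. Chi-square per degree of freedom between replicates was 1.98 to 7.44, so no library was a repeat of another.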

Additional observations from a re-analysis of the deposited data

How the results depend on the processing

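Across 17 alternative fits the count of called histone genes was 0 in each, as were those of the machinery, chaperone and S phase lists. Over all tested genes the count of calls, 12 in the full fit, was 48 with no filter on low counts, 43 with reads outside genes as a covariate, 18 at 1 CPM in 3 libraries, 14 with library totals, 12 with DESeq2 size factors, 11 with DESeq2, 8 with upper quartile scaling or limma-voom, 7 with the replicate block or without SOX10 replicate 1 and control replicate 3, 3 after thinning and 6 to 18 without 1 library. The lowest adjusted p of any histone gene in any of them was 0.164, for HIST3H2BB without SOX10 replicate 1. With a replicate block 0 histone genes were called, and the block changed no call of these results. Correlations of the deviations from the group mean were -0.03, -0.03 and -0.14 for same-numbered libraries and -0.11 to 0.15 for differently numbered ones. Centring within each small group ties these values to each other, so they cannot decide whether the numbers pair the samples. The summed histone level differed by -0.02 to 0.14 on the log2 scale over other scalings and filters, left-out libraries, thinning and without the near-identical copies. It was not computed for the replicate block, the covariate, the DESeq2 fit or limma-voom. The median histone log2 fold change was -0.01 to 0.12. The sign of the fold change differed from that of the full fit in 68 of 656 gene and setting combinations (10.4%), all among genes that were never called. After thinning 34 members were still tested. Depth limits the low members most: 7 of the 39 had under 10 CPM.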
